A study of Mus musculus with 25 samples.

Results

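Amino acid transporter RNA was followed in sorted mouse CD4 T cells. The set held 7 genes taken from a list of transporters and found in the count table by their Ensembl identifiers: Slc7a5, Slc3a2, Slc1a5, Slc38a1, Slc38a2, Slc7a1 and Slc7a6. They were 7 of the 46078 genes in the table, and all 7 had enough counts to be among the 14703 genes tested. The 25 libraries came from C57BL/6NTac mice, all of 1 strain, that carried a knock-out (KO) of the microRNA miR-150, a knock-in (KI) of miR-150, or the wild-type (WT) locus. Cells were collected at day 7 of EAE, experimental autoimmune encephalomyelitis, which is induced by immunization and serves as a mouse model of multiple sclerosis, or from naive mice without induction. The day 7 groups held 4 KO, 4 KI and 5 WT libraries and the naive groups held 4 KO, 4 KI and 4 WT libraries. The promoter and copy number of the knock-in, the organ the cells were sorted from, the antigen and the age and sex of the mice are not given in the sources used. Nor do they say whether each library came from its own mouse, so p-values measure the spread between libraries, part or all of which may be technical.

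T cells that leave the resting state take up amino acids from their surroundings for protein synthesis and for signalling through the kinase complex mTORC1. Slc7a5 (LAT1) encodes the light chain that exchanges leucine and other large neutral amino acids, and Slc3a2 (CD98 heavy chain, 4F2hc) encodes the partner that brings it to the cell surface. Slc7a6 (y+LAT2) encodes another light chain of Slc3a2, which exchanges cationic for neutral amino acids. Slc1a5 (ASCT2) carries glutamine and other neutral amino acids, Slc38a1 (SNAT1) and Slc38a2 (SNAT2) are sodium-coupled carriers of glutamine and alanine, and Slc7a1 (CAT1) takes up arginine and lysine. In T cells, receptor stimulation and the transcription factor Myc are known to raise several of these transporters. Atf4, the effector of the cellular response to amino acid shortage, is known to induce Slc7a5, Slc3a2, Slc7a1 and Slc38a2 in other cells.

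Total counts ran from 6024043 to 49489134 per library, and the WT naive libraries were the shallowest group, at 6024043 to 9351180. The 7 genes gave 162 to 6716 counts per library. Levels are given as CPM, the standard scaling of counts to the library total, with TMM factors, which adjust for differences in RNA composition. Cd4 stood at 443 to 582 CPM and the T cell receptor subunit Cd3d at 104 to 143 CPM in all libraries, the markers that define the labelled cells. The 6 B cell markers summed to 1.53 to 22.8 CPM over the libraries, the 7 myeloid markers to 3.29 to 17.1 CPM, the 4 dendritic cell markers to 0.120 to 3.67 CPM and the erythroid and platelet markers to 0.0 to 5.46 CPM, the highest in a KO naive library. With group means removed, the erythroid and platelet sum had a correlation of 0.60 with Slc7a6 over the 25 libraries. The targeted gene Mir150 had 0 counts in all 8 KO libraries, against 105 to 624 in KI and 111 to 743 in WT libraries. Scaled for depth, Mir150 had 9.08 to 29.2 CPM in KI and 12.4 to 25.7 CPM in WT libraries, so the 2 ranges overlapped. The level of mature miR-150 was not measured separately. Genes of ribosomal RNA and its copies took 15.0% to 20.9% of counts. Replicate 3 of the KO day 7 group stood apart, with the highest such share, the greatest depth and a weight of 0.144 when limma weighted libraries by their fit.

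The 7 genes lie on 5 chromosomes in mm10, with gene spans from GENCODE M21. Slc7a5 (ENSMUSG00000040010) spans chr8:121881150-121907694 and Slc7a6 (ENSMUSG00000031904) spans chr8:106168857-106198706. Slc38a1 (ENSMUSG00000023169) at chr15:96571418-96642913 and Slc38a2 (ENSMUSG00000022462) at chr15:96687392-96699730 are neighbours on the minus strand. Slc3a2 (ENSMUSG00000010095) spans chr19:8706882-8723369, Slc1a5 (ENSMUSG00000001918) spans chr7:16781340-16798274 and Slc7a1 (ENSMUSG00000041313) spans chr5:148327410-148399904. No exon of these genes overlaps an exon of another annotated gene, and the strand setting of the counting is not given in the sources used.

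Per kilobase of exon, Slc1a5 was the most abundant transporter, at 17.3 ± 1.85 CPM per kb (SD, n = 25 libraries), and Slc7a6 the least, at 5.66 ± 0.698 CPM per kb. Between them came Slc3a2 at 11.6, Slc38a2 at 11.0, Slc7a5 at 9.92, Slc38a1 at 8.82 and Slc7a1 at 7.34 CPM per kb. Slc1a5 exceeded Slc3a2, and Slc7a1 exceeded Slc7a6, in 25 of 25 libraries, and Slc38a1 exceeded Slc7a1 in 23 of 25. The order of the middle 4 was not stable: Slc3a2 exceeded Slc38a2 in 14, Slc38a2 exceeded Slc7a5 in 17 and Slc7a5 exceeded Slc38a1 in 12 of 25 libraries. Without the division by length, Slc38a1 had the highest CPM, and its annotated exons are the longest, at 17236 bases. All 7 were well expressed: their mean CPM exceeded that of 64.7% of tested genes for Slc7a6 and of 92.8% for Slc38a1. Slc7a5 varied most over the libraries, with a highest level 2.45 times the lowest, and Slc38a1 varied least, at 1.27 times.

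Promoter sequence from RefSeq (GRCm38.p6) was matched for 4 of the 7 genes: Slc3a2, Slc38a2, Slc7a1 and Slc7a6. The 250 bases before the start given by RefSeq are printed for Slc3a2, the only transporter whose stages did not overlap over all libraries, and for Slc7a1, the one gene with a match to a searched motif. The Slc3a2 stretch is chr19:8713898-8714147 and the Slc7a1 stretch chr5:148399905-148400154, both on the minus strand and read 5′ to 3′, with a match to the AP-1 motif in capitals. The Slc3a2 stretch lies inside the gene span given above: it precedes an internal start, downstream of the outermost 5′ end in GENCODE, whereas the Slc7a1 stretch ends at the outermost start.
Slc3a2: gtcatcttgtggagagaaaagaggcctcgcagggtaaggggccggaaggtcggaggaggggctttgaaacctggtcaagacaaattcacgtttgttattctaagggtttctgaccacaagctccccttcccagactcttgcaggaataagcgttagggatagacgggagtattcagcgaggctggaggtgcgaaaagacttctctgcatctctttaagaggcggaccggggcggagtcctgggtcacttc
Slc7a1: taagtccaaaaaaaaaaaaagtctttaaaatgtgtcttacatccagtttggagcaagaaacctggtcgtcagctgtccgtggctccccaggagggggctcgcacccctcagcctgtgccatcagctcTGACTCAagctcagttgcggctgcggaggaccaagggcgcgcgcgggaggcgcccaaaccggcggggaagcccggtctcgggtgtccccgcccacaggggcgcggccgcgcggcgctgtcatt
The motifs searched on both strands were the E-box CACGTG bound by Myc and Max, the AP-1 motif TGANTCA, the cyclic AMP response element TGACGTCA and the composite C/EBP-ATF motif TGATGNAA, to which Atf4 binds. Over the 6 windows of these 4 genes, each of 300 bases (250 before and 50 after the start), the only match was the AP-1 motif at position -123 of the first Slc7a1 window. Of 32851 such mouse windows, 7.15% held the E-box, 7.81% AP-1, 1.79% the cyclic AMP response element and 3.97% the C/EBP-ATF motif. The match is a description of letters, and binding was not measured.

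Slc7a5 and Slc3a2, the 2 chains of the leucine exchanger, had more RNA at day 7 than in naive cells. In KO cells, Slc7a5 had 39.5, 48.5, 42.9 and 40.0 CPM at day 7, against 26.9, 26.6, 28.8 and 27.2 CPM in naive cells. In KI cells it had 54.2, 47.3, 50.5 and 48.5 CPM at day 7, against 27.9, 32.5, 29.5 and 28.2 CPM in naive cells. In WT cells it had 32.2, 41.5, 33.0, 53.6 and 52.5 CPM at day 7, against 29.5, 26.5, 22.1 and 29.4 CPM in naive cells. Within each genotype every day 7 library was above every naive library, and over all genotypes the only overlap was WT day 7 replicate 1, at 32.2 CPM, with KI naive replicate 2, at 32.5 CPM. The WT day 7 libraries were the most spread, with a coefficient of variation of 24.1%, against 5.97% in KI day 7 libraries. Slc7a5 rose 1.56-fold in KO (log2 fold change 0.64, SE 0.13, adjusted p = 0.0158), 1.70-fold in KI (0.77, SE 0.13, adjusted p = 0.000980) and 1.59-fold in WT cells (0.66, SE 0.13, adjusted p = 0.00336), all by edgeR's quasi-likelihood test with Benjamini-Hochberg adjustment over all tested genes. Averaged over the 3 genotypes the rise was 1.61-fold (95% interval 1.45 to 1.79, adjusted p = 2.88e-07). In KO cells alone the call was lost without KO naive replicate 1 (adjusted p = 0.0568) and with limma voom (adjusted p = 0.0620), where the log2 fold change was 0.64 and 0.63. RNA was taken from bulk cells, so fewer cells of a type and less RNA per cell cannot be told apart in any of these values.

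**Figure D1:**
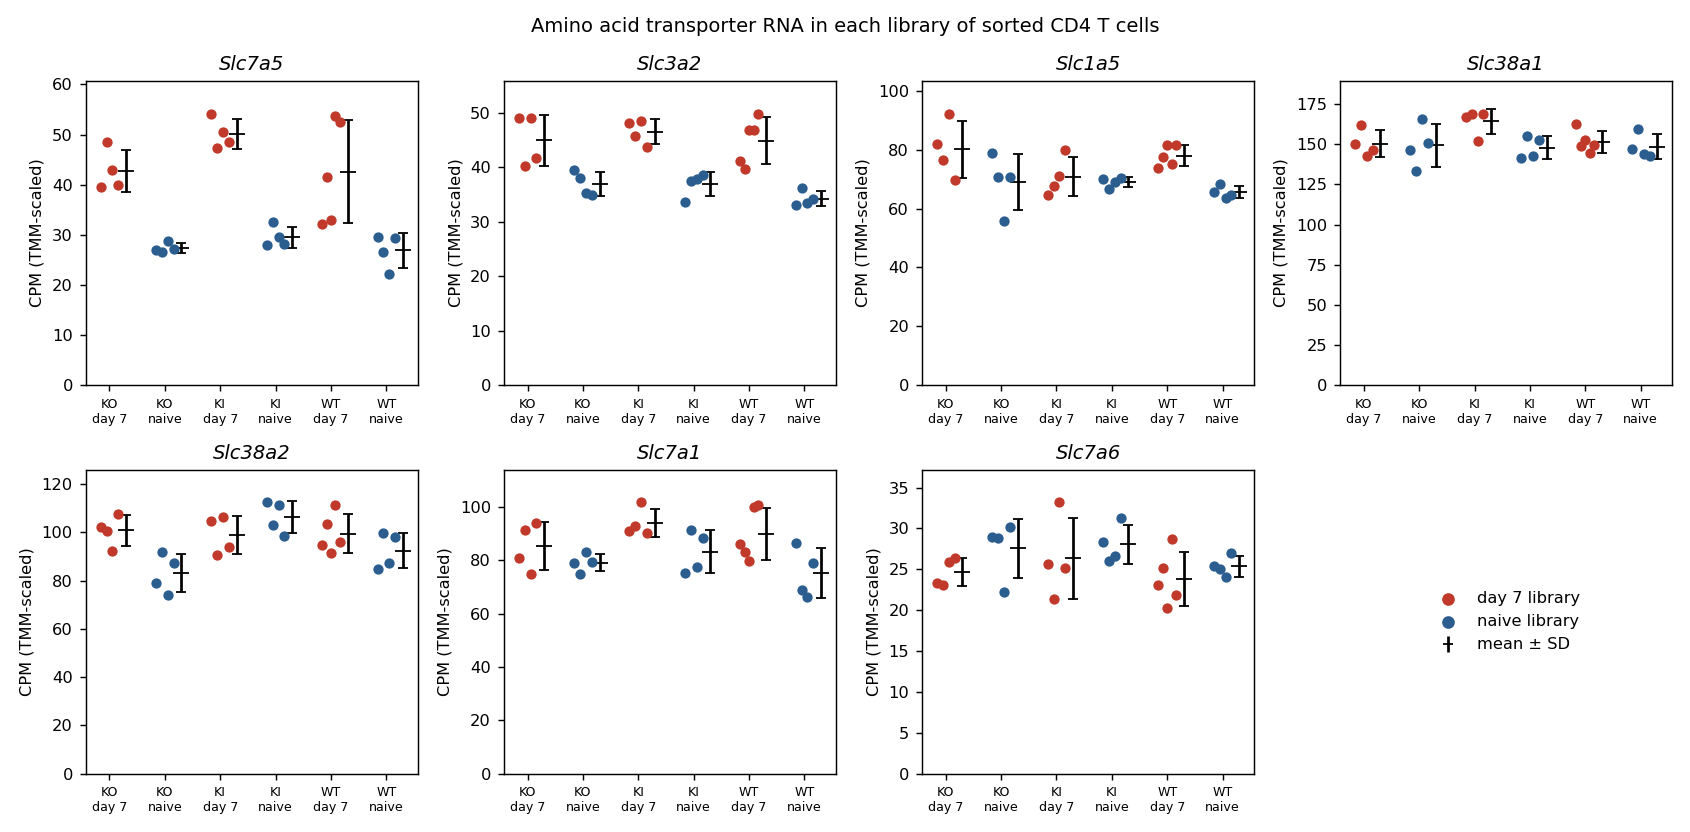
TMM-scaled CPM (y axes, from 0) of the 7 transporters in each of the 25 libraries, by genotype and stage; each dot is 1 library, red at day 7 and blue in naive cells, and bars are mean ± SD of a group. Slc7a5 sits at 32.2 to 54.2 CPM at day 7 and at 22.1 to 32.5 CPM in naive cells, whereas the Slc7a6 libraries of the 2 stages intermix.

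Slc3a2 rose less than Slc7a5 in its fold estimate with the genotypes averaged. In KO cells it had 49.0, 40.2, 48.9 and 41.6 CPM at day 7, against 39.5, 38.0, 35.3 and 35.0 CPM in naive cells. In KI cells it had 48.2, 45.8, 48.4 and 43.7 CPM at day 7, against 33.6, 37.5, 37.8 and 38.6 CPM in naive cells. In WT cells it had 41.1, 39.7, 46.8, 46.8 and 49.8 CPM at day 7, against 33.1, 36.1, 33.4 and 34.2 CPM in naive cells. All 13 day 7 libraries, at 39.7 to 49.8 CPM, were above all 12 naive libraries, at 33.1 to 39.5 CPM; Slc3a2 was the only one of the 7 with no overlap between the stages over all libraries, and 0.184% of tested genes were higher without overlap in this way. It rose 1.27-fold in KI (log2 fold change 0.34, SE 0.083, adjusted p = 0.0282) and 1.31-fold in WT cells (0.39, SE 0.082, adjusted p = 0.00715), while the KO value of 1.22-fold (0.29, SE 0.083) did not pass the edgeR test (adjusted p = 0.109). Averaged over the genotypes the rise was 1.27-fold (95% interval 1.18 to 1.35, edgeR adjusted p = 1.88e-05). The KI call was the least firm: it was lost without KI naive replicates 1, 2 or 3 and without KI day 7 replicates 1 or 3, with adjusted p between 0.0554 and 0.121, and also without a filter (adjusted p = 0.0511) and with a block on library numbers (adjusted p = 0.0537).

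The other light chain, Slc7a6, did not pass the test between the stages. It ranged from 20.3 to 33.2 CPM, with a median of 25.2 CPM, over the 13 day 7 libraries, and from 22.2 to 31.3 CPM, with a median of 26.8 CPM, over the 12 naive libraries. The stages overlapped in every genotype, and the log2 fold changes were -0.16 in KO, -0.078 in KI and -0.093 in WT cells, none past the edgeR test (adjusted p = 0.607, 0.842 and 0.787). Averaged over the genotypes the log2 fold change was -0.11 (95% interval -0.25 to 0.031, edgeR adjusted p = 0.349).

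Ratios of levels per kilobase within a library show the balance between the 2 light chains and their shared heavy chain. The ratio of Slc7a5 to Slc7a6 was 2.15 ± 0.310 in KO (SD, n = 4), 2.40 ± 0.377 in KI (SD, n = 4) and 2.20 ± 0.474 in WT day 7 libraries (SD, n = 5). It was 1.25 ± 0.233 in KO, 1.31 ± 0.188 in KI and 1.30 ± 0.123 in WT naive libraries (SD, n = 4 each). The lowest day 7 ratio was 1.72 and the highest naive ratio 1.59, so all 13 day 7 libraries lay above all 12 naive libraries. The ratio of Slc7a5 to Slc3a2 was 0.916 ± 0.166 in KO, 1.03 ± 0.0441 in KI and 0.901 ± 0.182 in WT day 7 libraries, against 0.707 ± 0.0607 in KO, 0.763 ± 0.0555 in KI and 0.748 ± 0.102 in WT naive libraries. The stages overlapped for this ratio in KO and WT libraries and not in KI libraries. The ratio of Slc7a6 to Slc3a2 was 0.427 ± 0.0516 in KO, 0.436 ± 0.0711 in KI and 0.414 ± 0.0740 in WT day 7 libraries, against 0.576 ± 0.0735 in KO, 0.589 ± 0.0588 in KI and 0.573 ± 0.0345 in WT naive libraries. These ratios were formed after the levels were known and carry no test. A ratio within a library shows unequal change between its parts, and RNA ratios are not ratios of assembled transporter. The size of each ratio also depends on the annotated exon lengths.

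**Figure D2:**
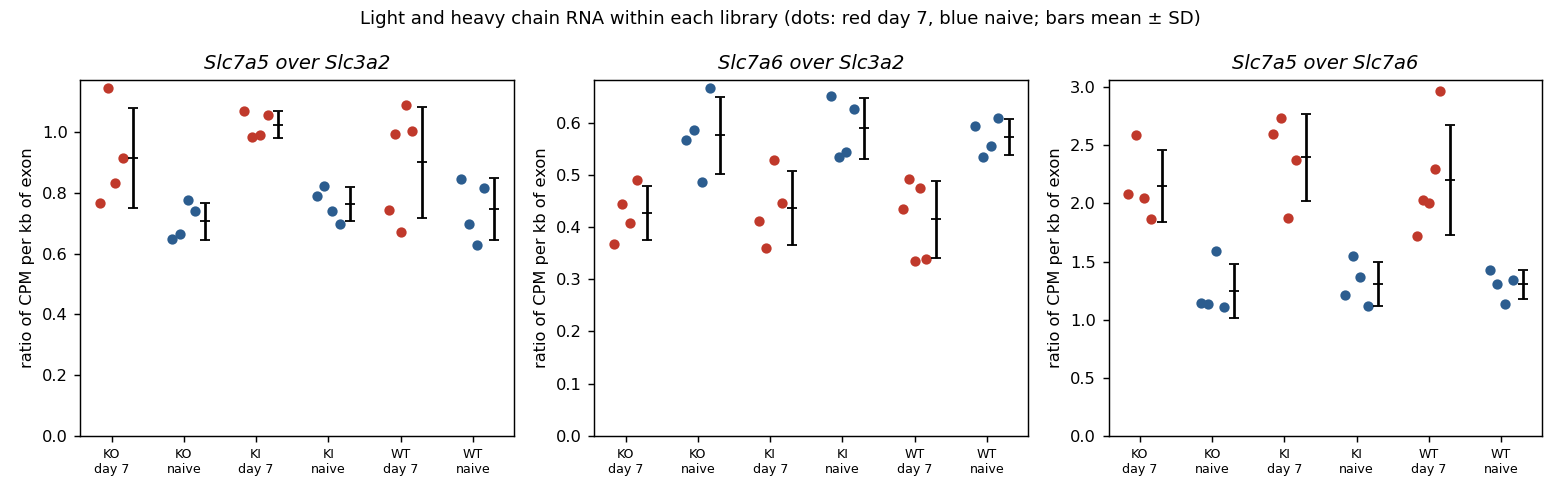
Ratios of TMM-scaled CPM per kilobase of exon (y axes, from 0) for the light chains Slc7a5 and Slc7a6 and the heavy chain Slc3a2, by genotype and stage; each dot is 1 library, red at day 7 and blue in naive cells, and bars are mean ± SD. The ratio of Slc7a5 to Slc7a6 is at least 1.72 in day 7 libraries and at most 1.59 in naive libraries.

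Among the carriers of glutamine and other small neutral amino acids, Slc1a5 differed slightly between the stages and the 2 SNAT genes did not pass the test. Slc1a5 ranged from 64.8 to 92.3 CPM at day 7 (median 76.4, n = 13), against 55.7 to 78.8 CPM in naive cells (median 68.6, n = 12). In WT cells it had 73.7, 77.6, 81.5, 75.3 and 81.6 CPM at day 7, against 65.8, 68.3, 63.6 and 64.6 CPM in naive cells. The WT stages did not overlap, while the KO and KI stages did, with KO naive replicate 1 at 78.8 CPM and KI day 7 replicate 1 at 64.8 CPM. Its log2 fold changes were 0.22 in KO (SE 0.087), 0.038 in KI (SE 0.088) and 0.25 in WT cells (SE 0.085), none past the edgeR test (adjusted p = 0.278, 0.908 and 0.130). Averaged over the genotypes Slc1a5 rose 1.123-fold (95% interval 1.05 to 1.21, edgeR adjusted p = 0.0279), a call lost in edgeR without KO day 7 replicate 3 (adjusted p = 0.0529), the library that stood apart, without KI day 7 replicate 4 (adjusted p = 0.0555), and with a block on library numbers (adjusted p = 0.0535).

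Slc38a1 was the steadiest of the 7. It ranged from 143 to 169 CPM at day 7 (median 152, n = 13), against 133 to 166 CPM in naive cells (median 147, n = 12), and the stages overlapped in each genotype. Its log2 fold change averaged over the genotypes was 0.064 (95% interval -0.0097 to 0.14, edgeR adjusted p = 0.284), and the KI value alone was 0.15 (SE 0.063, adjusted p = 0.239). Slc38a2 ranged from 90.8 to 112 CPM at day 7 (median 101, n = 13), against 74.2 to 113 CPM in naive cells (median 95.02, n = 12). In KO cells every day 7 library, at 102, 101, 92.5 and 108 CPM, was above every naive library, at 79.2, 92.1, 74.2 and 87.2 CPM, although replicate 3 at day 7 cleared naive replicate 2 by under 1 CPM. The KO log2 fold change of Slc38a2 was 0.28 (SE 0.079, edgeR adjusted p = 0.103), and DESeq2 called it (adjusted p = 0.0398). In KI cells the value was -0.11 (SE 0.079, edgeR adjusted p = 0.587) and in WT cells 0.10 (SE 0.076, edgeR adjusted p = 0.580).

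Slc7a1, the arginine and lysine transporter, ranged from 75.0 to 102 CPM at day 7 (median 91.0, n = 13), against 66.1 to 91.5 CPM in naive cells (median 79.0, n = 12). The stages overlapped in all 3 genotypes. In WT cells it had 86.1, 83.2, 79.6, 100.02 and 101 CPM at day 7, against 86.5, 69.0, 66.1 and 79.1 CPM in naive cells, where naive replicate 1 lay above 3 of the 5 day 7 libraries. Its log2 fold changes were 0.11 in KO (SE 0.091), 0.18 in KI (SE 0.092) and 0.26 in WT cells (SE 0.089), none past the edgeR test (adjusted p = 0.674, 0.353 and 0.130). Averaged over the genotypes it rose 1.13-fold (95% interval 1.05 to 1.22, edgeR adjusted p = 0.0218), and this call held without each library in turn, with adjusted p of at most 0.0489.

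Counted over the 7 transporters, 1 was called higher at day 7 in KO cells (Slc7a5), where 0.211% of all tested genes were called higher. In KI cells 2 were called higher (Slc7a5 and Slc3a2), against 1.01% of tested genes, and in WT cells the same 2, against 1.18%. The shares called in either direction were 0.408% in KO, 2.02% in KI and 2.14% in WT cells. With the genotypes averaged, 4 were called higher (Slc7a5, Slc3a2, Slc7a1 and Slc1a5) and 0 lower, in a comparison that called 11.2% of tested genes and 6.16% as higher. The median log2 fold change of the 7 was 0.17, against -0.0036 over all tested genes. Libraries of the stages did not overlap, with day 7 higher, for 3 transporters in KO cells (Slc7a5, Slc3a2 and Slc38a2, background 2.43%), 2 in KI cells (Slc7a5 and Slc3a2, background 4.7%) and 3 in WT cells (Slc7a5, Slc3a2 and Slc1a5, background 2.94%). The 3 genotypes are separate libraries, but they enter the averaged comparison together, so its calls are not additional evidence. The 7 transporters were chosen with earlier results of these data known, so the shares of all tested genes beside these counts are descriptions only.

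**Figure D3:**
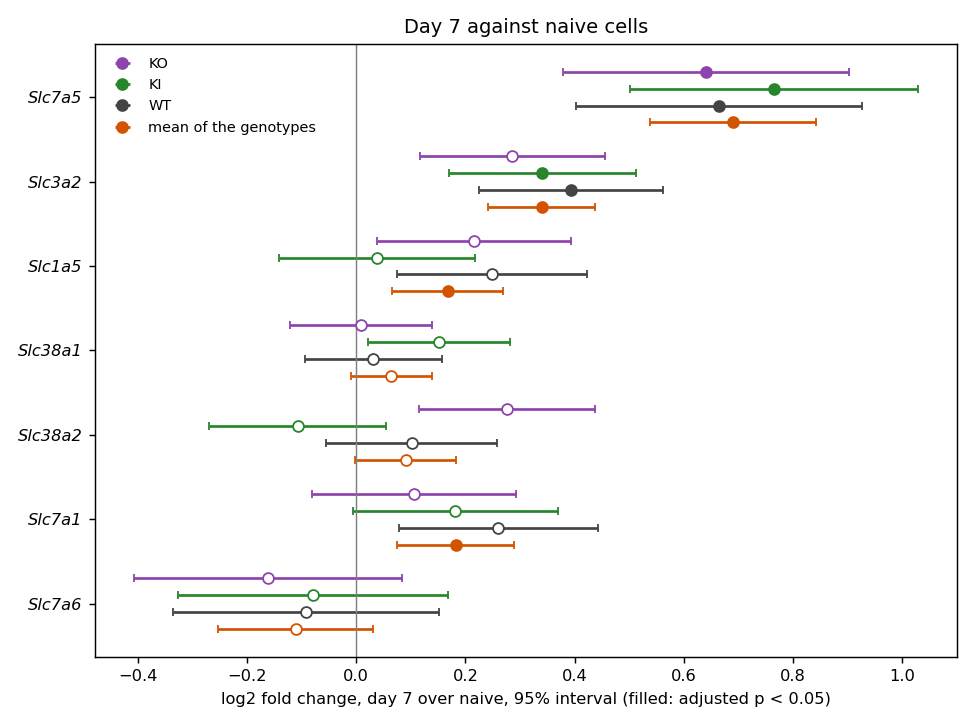
Log2 fold change of day 7 over naive cells (x axis) for each transporter, in KO, KI and WT cells and averaged over the genotypes; points are edgeR estimates with 95% intervals, filled where the adjusted p is under 0.05. Slc7a5 is filled in all 4 estimates, at 0.64 to 0.77, and the intervals of Slc38a1, Slc38a2 and Slc7a6 averaged over the genotypes include 0.

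Other measures also differed between the stages. With the genotypes averaged, edgeR called 744 of all 14703 tested genes lower at day 7. Markers of gamma-delta T cells summed to 6.90 to 15.1 CPM in day 7 libraries, against 13.5 to 20.6 CPM in naive libraries, and 3 of 3 fell (Trdc by 0.71 on the log2 scale, edgeR adjusted p = 2.91e-06). Of the 5 tested markers of CD8 T and NK cells, 2 fell (Klrd1 and Nkg7) with the genotypes averaged, and their list summed to 9.72 to 20.4 CPM at day 7, against 13.5 to 38.5 CPM in naive libraries. Of 24 cell cycle genes, 13 rose and 0 fell with the genotypes averaged, where 6.16% of all tested genes were called higher. In KO, KI or WT cells alone edgeR called 0 of 24, with 15 in KO, 9 in KI and 3 in WT cells at an unadjusted p under 0.05. Of all 14703 tested genes, 1888 in KO, 2222 in KI and 2213 in WT cells were under this limit, so the WT number was not above the share of all genes. With the genotypes averaged, the median log2 fold change of the 24 was 0.88. The number called higher was 12 without KO day 7 replicate 3. It was 7 without KO day 7 replicate 2 or KI day 7 replicate 1, and 8 without KI day 7 replicate 4, WT day 7 replicate 3, KI naive replicates 2 or 4 or WT naive replicate 3. With a block on library numbers it was 6. The cell cycle genes summed to 356 to 907 CPM at day 7, against 377 to 498 CPM in naive libraries, and with group means removed its correlation over 25 libraries was 0.42 with Slc38a1, 0.049 with Slc7a5, 0.0031 with Slc1a5, -0.085 with Slc38a2, -0.17 with Slc7a1, -0.25 with Slc3a2 and -0.31 with Slc7a6. The share of ribosomal RNA and its copies was 16.4% to 20.9% at day 7, against 15.0% to 18.1% in naive libraries, and with group means removed its correlation with the transporters ran from -0.19 for Slc7a1 to 0.43 for Slc3a2. The same 4 transporters were called when those genes were left out of the table. With the genotypes averaged, the 7 CD4 T cell markers had 0 calls by edgeR and 3 at an unadjusted p under 0.05, which 3587 of all 14703 tested genes reached. Their summed levels were 2079 to 2296 CPM at day 7, against 2050 to 2220 CPM in naive libraries. The part of the residual cell types and of cycling cells in the transporter results was not tested.

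None of the 7 transporters passed the test between miR-150 genotypes at either stage. For KO against WT, 0 of 7 were called at day 7, where edgeR called 0.0476% of tested genes, and 0 of 7 in naive cells, where it called 0.0204%; no transporter reached an unadjusted p under 0.05 in either. For KI against WT, 0 of 7 were called at day 7 (background 0.0%) and 0 of 7 in naive cells (background 0.0136%). Only 1 unadjusted p was under 0.05, that of Slc38a2 in naive cells, where 333 of all 14703 tested genes were under this limit. DESeq2 and limma voom also called 0 of 7 in these 4 comparisons. The intervals bound how large a difference could be: at day 7 the 95% intervals of KO over WT lay within 0.837-fold and 1.22-fold for all 7, and those of KI over WT within 0.807-fold and 1.40-fold. In naive cells they lay within 0.802-fold and 1.30-fold for KO over WT and within 0.908-fold and 1.33-fold for KI over WT. A missed threshold does not show that the genotypes are alike.

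**Figure D4:**
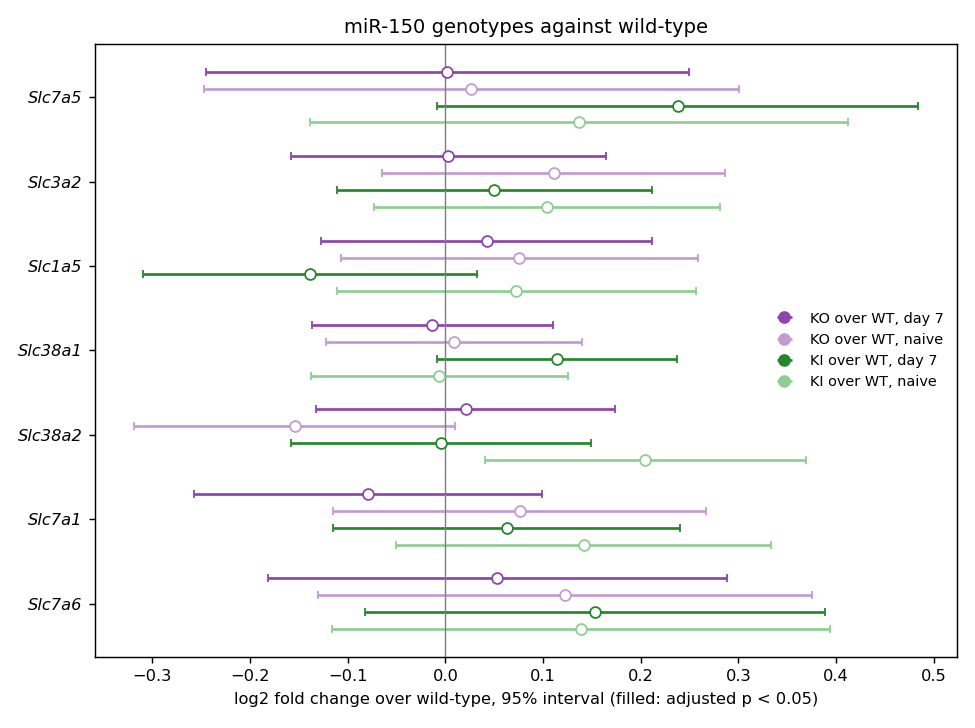
Log2 fold change over WT cells (x axis) for each transporter, for KO and KI at day 7 and in naive cells; points are edgeR estimates with 95% intervals, filled where the adjusted p is under 0.05. No point is filled, and the estimates run from -0.15 to 0.24.

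The largest estimate against WT at day 7 was that of Slc7a5 in KI cells, where the WT libraries were spread. Slc7a5 averaged 50.14 ± 2.996 CPM in KI day 7 libraries (SD, n = 4) and 42.6 ± 10.3 CPM in WT day 7 libraries (SD, n = 5), a log2 fold change of 0.24 (95% interval -0.0086 to 0.48, edgeR adjusted p = 0.999). In KO day 7 libraries it averaged 42.7 ± 4.13 CPM (SD, n = 4), and its log2 fold change over WT was 0.0022 (95% interval -0.24 to 0.25). KO and WT libraries overlapped fully, and the highest KI library, at 54.2 CPM, was level with the highest WT library, at 53.6 CPM.

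Slc38a2 came closest to a genotype difference, in naive KO against naive KI cells. It had 79.2, 92.1, 74.2 and 87.2 CPM in KO naive libraries, against 113, 103, 111 and 98.7 CPM in KI naive libraries. All 4 KO libraries were below all 4 KI libraries, a pattern shown by 3.56% of tested genes in this comparison. The log2 fold change was -0.36 (SE 0.079, 95% interval -0.52 to -0.20), with an edgeR adjusted p of 0.0503, just outside the threshold of 0.05, where 0.163% of tested genes were called. DESeq2 (adjusted p = 0.00507) and limma voom (adjusted p = 0.0231) called it, as did edgeR with DESeq2's size factors (adjusted p = 0.0499), without a filter (adjusted p = 0.00324), without ribosomal, mitochondrial and haemoglobin genes (adjusted p = 0.0469) and without KO naive replicate 2 (adjusted p = 0.0270). Over the edgeR fits that left out 1 library the adjusted p ran from 0.0270 to 0.220. It was not called when library number was a covariate, with only the groups compared, or with a block on library numbers, where the adjusted p was highest at 0.229. Markers of other cell types differed in their summed level in the same libraries. The myeloid sum was 5.17 to 17.1 CPM in KO naive and 3.64 to 5.35 CPM in KI naive libraries, and the B cell sum was 3.54 to 22.8 CPM in KO naive and 2.15 to 11.5 CPM in KI naive libraries. The sum of CD8 T and NK cell markers was 16.4 to 38.5 CPM in KO naive and 15.0 to 19.4 CPM in KI naive libraries, and that of gamma-delta T cells 14.0 to 19.9 CPM in KO naive and 13.5 to 17.5 CPM in KI naive libraries. The log2 estimates were positive for 6 of 6 tested B cell and 3 of 3 myeloid markers. They were also positive for 5 of 5 CD8 T and NK cell and 3 of 3 gamma-delta T cell markers, and 0 of all these passed the edgeR test. In edgeR an unadjusted p under 0.05 was reached by the 3 myeloid markers and by 0 of the others, against 1323 of all 14703 tested genes. With group means removed, Slc38a2 had a correlation of -0.39 with the myeloid sum over 25 libraries, and the part of these cells in its difference was not tested. WT naive libraries, at 84.9, 99.8, 87.4 and 98.0 CPM, overlapped both. At day 7 the difference was not seen, with a log2 fold change of 0.025 between KO and KI (95% interval -0.14 to 0.19, edgeR adjusted p = 0.954). For KO against KI at day 7, 0 of 7 transporters were called, where edgeR called 0.374% of tested genes. Of the 7, only Slc1a5 had an unadjusted p under 0.05, as did 1643 of all 14703 tested genes.

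The day 7 difference was also compared between genotypes directly. The interaction of stage with KO, relative to WT, was called for 0 of 7 transporters (0.0% of tested genes), with log2 values from -0.16 for Slc7a1 to 0.18 for Slc38a2. The interaction with KI was called for 0 of 7 (0.0% of tested genes), with log2 values from -0.21 for Slc1a5 and Slc38a2 to 0.12 for Slc38a1. No transporter had an unadjusted p under 0.05 in either, and DESeq2 and limma voom called none of the 7. For Slc7a5 the interaction was -0.024 with KO (95% interval -0.39 to 0.34) and 0.10 with KI (95% interval -0.27 to 0.47), so a day 7 rise up to 1.39-fold larger in KI than in WT cells lies inside the second interval. Slc3a2 was called in WT and not in KO cells, but its interaction was not called, at -0.11 (95% interval -0.35 to 0.13, edgeR adjusted p = 0.849).

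The 18 other amino acid transporters that were tested, of 38 in the table, had, with the genotypes averaged, a median log2 fold change of 0.035. Of these, 2 rose and 0 fell, where 6.16% of all tested genes were called higher. Slc1a4, a carrier of alanine, serine and cysteine, averaged 2.86 ± 1.34 CPM at day 7 (SD, n = 13) and 1.33 ± 0.704 CPM in naive libraries (SD, n = 12), a 2.20-fold rise (edgeR adjusted p = 0.00902). Slc15a3, a lysosomal carrier of histidine and small peptides, averaged 0.760 ± 0.640 CPM at day 7 and 0.268 ± 0.285 CPM in naive libraries (edgeR adjusted p = 0.0208). Its median was 0.518 CPM at day 7 and 0.174 CPM in naive libraries, where the highest was 0.823 CPM. Slc15a3 may have passed the count filter only through its day 7 libraries, which was not tested, so its call is no support for a rise. Both genes have low levels, and 1 of the 2 calls was lost without KO day 7 replicate 3.

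Genes of the response to amino acid shortage belong to a pathway that raises transporters and amino acid synthesis through Atf4. Amino acid levels were not measured, and whether the day 7 cells were short of amino acids was not tested. The list of these genes and the other gene lists were chosen with earlier results of these data known, so their counts are descriptions only. With the genotypes averaged, 11 of 17 tested genes of the shortage list rose and 0 fell, where 6.16% of all tested genes were called higher. The median log2 fold change was 0.47, and 2 of the 6 that did not pass had values below 0 (Cebpg at -0.11 and Psph at -0.029); without KO day 7 replicate 3 the number was 12 and the median 0.44, and over all fits without 1 library it was 9 to 12. Atf4 itself averaged 86.4 ± 10.7 CPM at day 7 (SD, n = 13) and 58.6 ± 8.23 CPM in naive libraries (SD, n = 12), a 1.47-fold rise (edgeR adjusted p = 2.65e-07). Shmt2 and Mthfd2, mitochondrial enzymes of serine and folate metabolism, rose 1.45-fold (adjusted p = 1.54e-06) and 1.42-fold (adjusted p = 3.42e-06). Cebpb, a transcription factor that pairs with Atf4, averaged 4.69 ± 1.42 CPM at day 7 and 1.95 ± 0.536 CPM in naive libraries, a 2.39-fold rise (edgeR adjusted p = 1.22e-06). By genotype, 2 of the 17 were called higher in KO, 6 in KI and 6 in WT cells. The shares of all tested genes called higher were 0.211% in KO, 1.01% in KI and 1.18% in WT cells. The interaction of stage with genotype was called for 0 of 17 with KO and 0 of 17 with KI (0.0% of tested genes in each). An unadjusted p under 0.05 in edgeR was reached by 5 of 17 with KO, 1 of them positive, and by 1 with KI. Of all 14703 tested genes, 1145 reached it with KO and 558 with KI.

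Cytosolic aminoacyl-tRNA synthetases, which load amino acids onto tRNA and several of which are Atf4 targets, included 10 of 21 tested genes that rose and 0 that fell with the genotypes averaged, where 6.16% of all tested genes were called higher. The list had a median log2 fold change of 0.10, and the number was 9 or 10 in all fits without 1 library. By genotype, 1 of the 21 was called higher in KO, 7 in KI and 3 in WT cells. The shares of all tested genes were 0.211%, 1.01% and 1.18% in that order. The interaction of stage with genotype was called for 0 of 21 with KO and 0 of 21 with KI (0.0% of tested genes in each). An unadjusted p under 0.05 in edgeR was reached by 2 of 21 with KO, 1 of them positive, and by 0 with KI. Of all 14703 tested genes, 1145 reached it with KO and 558 with KI, so the KO number was near the share of all genes. Sars, for serine, averaged 122.3 ± 12.01 CPM at day 7 (SD, n = 13) and 95.05 ± 5.81 CPM in naive libraries (SD, n = 12), a 1.29-fold rise (edgeR adjusted p = 1.68e-06). Mars, for methionine, rose 1.37-fold (adjusted p = 1.26e-05), Cars, for cysteine, 1.45-fold (adjusted p = 6.37e-05) and Aars, for alanine, 1.36-fold (adjusted p = 0.000145).

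Among all 14703 tested genes, 6.16% were called higher and 11.2% in either direction with the genotypes averaged, and 744 genes were called lower. Of 35 genes of amino acid sensing and mTORC1, 2 rose and 0 fell, with a median log2 fold change of -0.021. This count was near the share of all tested genes called higher. The 2 were Sesn2, a leucine sensor that restrains mTORC1 and a known Atf4 target, at 1.68-fold (edgeR adjusted p = 0.00462), and Rragd, a Rag GTPase of the lysosomal mTORC1 platform, at 1.54-fold (edgeR adjusted p = 0.0252). In glutamine, branched-chain and arginine metabolism 2 of 20 rose and 0 fell. These were Odc1, the first enzyme of polyamine synthesis from ornithine, at 1.64-fold (edgeR adjusted p = 2.62e-05), and Got1, an aspartate aminotransferase, at 1.18-fold (edgeR adjusted p = 0.0296); the number was 1 without KO day 7 replicate 3, KI day 7 replicate 1, WT day 7 replicate 3, KO naive replicate 4 or KI naive replicates 2 or 3. In the Myc and Max network 1 of 10 rose and 2 fell. Myc rose 1.13-fold (edgeR adjusted p = 0.0429), a call lost in 11 of the 25 fits without 1 library, KO day 7 replicate 3 among them. Mga, which binds the same partner Max, fell to 0.917-fold (edgeR adjusted p = 0.0146) and Mxd4, a Myc antagonist, to 0.839-fold (edgeR adjusted p = 0.00157). Of 15 tested T cell activation genes, Icos, a costimulatory receptor, rose 1.46-fold (edgeR adjusted p = 0.00701) and Egr2, a factor induced by the T cell receptor, fell to 0.787-fold (edgeR adjusted p = 0.0279), a call lost without KO day 7 replicate 3.

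**Figure D5:**
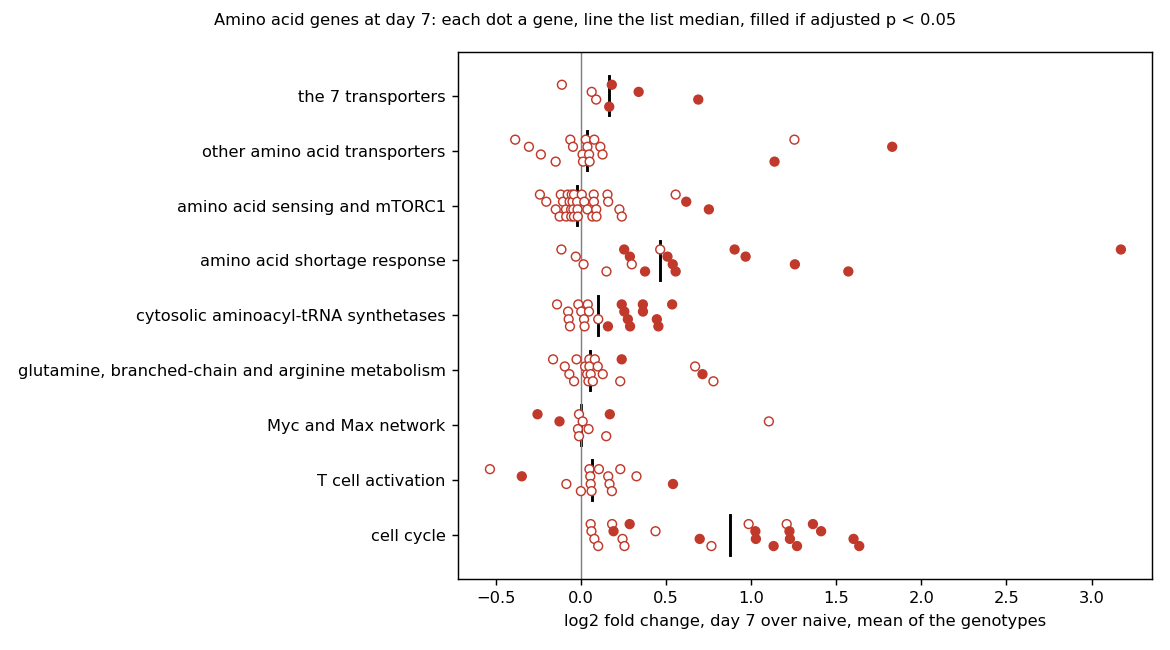
Log2 fold change of day 7 over naive cells averaged over the genotypes (x axis) for the transporters and 8 gene lists; each dot is a tested gene, filled where the edgeR adjusted p is under 0.05, and the vertical line is the list median. The shortage response (11 of 17 filled, median 0.47) and the tRNA synthetases (10 of 21 filled, median 0.10) lie mostly to the right of 0, and the sensing and mTORC1 list (2 of 35 filled, median -0.021) is centred near 0.

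With the group means removed, some pairs of transporters varied together from library to library and others in opposite directions. Over the 25 libraries the correlation of log2 CPM was 0.21 between Slc7a5 and Slc3a2, the 2 chains of 1 exchanger. It was 0.66 between Slc7a5 and Slc7a1, 0.59 between Slc38a2 and Slc7a6 and 0.41 between Slc3a2 and Slc1a5, and it was -0.57 between Slc38a1 and Slc7a6. With Atf4 the correlation was 0.56 for Slc3a2, 0.44 for Slc7a5, 0.34 for Slc7a6 and 0.30 for Slc38a2. It was 0.24 for both Slc1a5 and Slc7a1 and -0.16 for Slc38a1. With Myc it was 0.53 for Slc3a2, 0.34 for Slc1a5, 0.31 for Slc38a2 and 0.25 for Slc7a5. Slc7a6 had 0.042 with Myc, Slc7a1 -0.058 and Slc38a1 -0.28. The points share library depth and composition, and these values are descriptions with no test.

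Among 8598 protein-coding genes with a mean of at least 5 CPM, those whose residual pattern was most like each transporter were named by the same measure. Slc7a1 was closest to Nars (r = 0.78), the synthetase for asparagine, to Zfp933 (r = 0.74) and to Phgdh (r = 0.73), the first enzyme of serine synthesis. Slc7a5 was closest to Lrrc58 (r = 0.77), Wdr75 (r = 0.77) and Ppp1r15b (r = 0.76), a phosphatase subunit that reverses the eIF2 alpha phosphorylation of the stress response. Slc3a2 was closest to Shisa5 (r = 0.75), Spcs2 (r = 0.74) and Pak1 (r = 0.72), and Slc1a5 to Oas1c (r = 0.77), Aaed1 (r = 0.76) and Plpp5 (r = 0.75). Slc38a1 was closest to Pdcd1 (r = 0.79), the inhibitory receptor PD-1, to Il10ra (r = 0.76) and to Exoc7 (r = 0.75). Slc38a2 was closest to Ube2w (r = 0.83), Zdhhc15 (r = 0.80) and Ssbp2 (r = 0.78), and Slc7a6 to Glrx2 (r = 0.84), Hnrnph1 (r = 0.83) and Dyrk1a (r = 0.80). Each is the best of 8598 candidates over 25 libraries, where high values arise among so many genes, and no p is given.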

How the data were processed

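RNA of sorted CD4 T cells was sequenced in pairs on an Illumina NovaSeq from SMARTer Stranded Total RNA-Seq Pico libraries, per the labels. The deposited table holds raw whole-number counts per Ensembl gene, as the authors made them, for 25 sample columns. Reads were mapped to mm10 and DESeq2 was used, per the submitters' processing notes; the aligner, counting tool, strand setting and gene models are not given in the sources used. Identifiers were matched to GENCODE M21, which with the NCBI names gave a symbol to 45229 of 46078. No pair of libraries of a group agreed within sampling noise.

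Genes were filtered by edgeR's filterByExpr (minimum count 10, minimum total 15), which kept 14703. After TMM scaling, edgeR's quasi-likelihood fit took in all 25 libraries, each group having its own mean, and 12 comparisons were tested with two-sided tests and Benjamini-Hochberg adjustment over all tested genes (threshold 0.05). The common biological coefficient of variation was 0.210. The SE is the log2 fold change divided by the root of its F statistic, and a 95% interval uses the residual and prior degrees of freedom. The alternatives were no filter, and library number as a covariate or in blocks of 4, with library 225 in the last block. Others were DESeq2's size factors, limma voom (quality weights), DESeq2, leaving out ribosomal, mitochondrial and haemoglobin genes, only the groups compared, and each library left out. The counts over gene lists under these alternatives were added after the data were seen. The procedure was tested on simulated data.

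All 7 transporters are named in every comparison. From each other list, up to 4 called genes with the smallest p with the genotypes averaged are named or, if none is called, the 2 with the highest mean; as most like a transporter, the 3 protein-coding genes of at least 5 CPM with the highest Pearson r. The members and lists were chosen with earlier results of these data known. Tests used edgeR 4.0.16, DESeq2 1.42.0 and limma 3.58.1 in R 4.3.3; tables and figures used pandas 2.3.3 and matplotlib 3.10.9 in Python 3.11.15.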

Additional observations from a re-analysis of the deposited data

Results flagged for a closer look

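Of 42 groups of libraries examined (7 transporters in 6 groups), 2 held a library farther from the rest than Dixon's 95% limit allows, where chance gives about 1 in 20. Slc38a1 was at 152 CPM in KI day 7 replicate 3, below 167 to 169 CPM in the other KI day 7 libraries. Slc7a6 was at 22.2 CPM in KO naive replicate 3, below 28.8 to 30.1 CPM in the other KO naive libraries. Neither library decided a call of these 2 genes: Slc38a1 and Slc7a6 were not called in any comparison with or without them.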

How the results depend on the processing

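The rise of Slc7a5 with the genotypes averaged kept its call in all 7 alternatives that were run and in all 25 fits without 1 library, with log2 values of 0.66 to 0.72 over these 25, and so did the rises of Slc3a2 and Slc7a1. The rise of Slc1a5 was lost under the library-number block (adjusted p = 0.0535) and without KO day 7 replicate 3 or KI day 7 replicate 4 (adjusted p = 0.0529 and 0.0555). The fit of only the groups compared was not run for the averaged comparison, which uses all 6 groups. No paired analysis was possible because the labels give no replicate numbers; the block on sets of 4 library numbers stands for order only.

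The number of transporters called changed as follows. For day 7 against naive it was 2 with DESeq2 and 0 with limma voom in KO cells (edgeR 1), 1 without a filter and 1 with the block in KI cells (edgeR 2), and 4 with limma voom in WT cells (edgeR 2), where Slc1a5 (adjusted p = 0.0370) and Slc7a1 (adjusted p = 0.0497) were added. Slc3a2 was the call lost in KI cells (adjusted p = 0.0511 without a filter and 0.0537 with the block). For naive KO against KI cells it was 1 with DESeq2's size factors, without a filter, without ribosomal, mitochondrial and haemoglobin genes, with DESeq2 and with limma voom (edgeR 0). Without 1 library the numbers ran from 0 to 1 for day 7 in KO, 1 to 2 for day 7 in KI and 0 to 1 for naive KO against KI cells. The cause of these changes was not tested.

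The number of all tested genes called at day 7 was 60 in KO cells, with 540 without a filter, 105 higher and 117 lower with DESeq2, 16 with limma voom and 32 with only those groups, and 27 to 92 without 1 library. In KI cells it was 297, with 890, 499 and 720 without a filter, with DESeq2 and with limma voom and 112 to 376 without 1 library. In WT cells it was 315, with 894, 499 and 516 in that order, and 144 to 469 without 1 library. With the genotypes averaged it was 1649, and 1268 to 1987 over all alternatives. For KO against KI it was 55 at day 7 and 24 in naive cells, with 404 and 269 without a filter, 137 and 111 with DESeq2, and 49 and 137 with limma voom; with only those groups the day 7 number was 1, and with the block the naive number was 37. Without 1 library these ran from 15 to 57 at day 7 and from 6 to 51 in naive cells. For KO against WT it was 7 at day 7 and 3 in naive cells, with 349 and 147 without a filter and 77 and 16 with DESeq2; the day 7 number was also 2 with limma voom, 1 with only those groups and 13 with the block, and 2 to 24 without 1 library. For KI against WT it was 0 at day 7 and 2 in naive cells, with 96 and 59 without a filter and 0 and 5 with DESeq2; the naive number was also 4 with limma voom, 11 with only those groups and 0 with the block, and without 1 library it was 0 to 5 in naive cells and 0 to 1 at day 7. For the interactions it was 0, with 30 higher and 173 lower (KO) and 109 in all (KI) without a filter and 1 each with DESeq2, and 2 with limma voom (KI).

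Log2 values near 0 that passed no test changed sign, and the cause was not tested. With limma voom this was the case in naive KO against WT for Slc38a1 (-0.00037), in day 7 KO against WT for Slc7a5 (-0.066), Slc3a2 (-0.057), Slc1a5 (-0.053) and Slc38a1 (0.0053) and in naive KI against WT for Slc38a1 (0.0049). With the same setting it was also the case in naive KO against KI for Slc3a2 (-0.0086), Slc1a5 (-0.0038), Slc38a1 (-0.0052) and Slc7a6 (0.023) and in the KO interaction for Slc38a1 (0.0056). With library number as a covariate this was the case in naive KO against WT for Slc7a5 (-0.027), in day 7 KO against WT for Slc7a5 (-0.013) and Slc3a2 (-0.00059) and in naive KI against WT for Slc38a1 (0.00087). With the same setting it was also the case in the KO interaction for Slc7a5 (0.014). Under the block this was the case in day 7 KO against WT for Slc3a2 (-0.016) and in naive KO against KI for Slc7a5 (0.0088), Slc1a5 (-0.033) and Slc7a6 (0.021). Without a filter this was the case in naive KI against WT for Slc38a1 (0.0050) and in naive KO against KI for Slc1a5 (-0.0018). Without 1 library, signs changed in naive KO against WT for Slc38a1 (-0.045 to 0.058) and Slc7a5 (-0.058 to 0.076) and in day 7 KO against WT for Slc1a5 (-0.036 to 0.10), Slc38a1 (-0.049 to 0.014), Slc38a2 (-0.013 to 0.067), Slc3a2 (-0.043 to 0.051), Slc7a5 (-0.085 to 0.10) and Slc7a6 (-0.0025 to 0.14). They also changed in naive KI against WT for Slc38a1 (-0.030 to 0.031) and in day 7 KI against WT for Slc38a2 (-0.041 to 0.042). Such changes occurred in naive KO against KI for Slc1a5 (-0.065 to 0.092), Slc38a1 (-0.039 to 0.064), Slc3a2 (-0.038 to 0.034) and Slc7a6 (-0.064 to 0.070) and in day 7 KO against KI for Slc38a2 (-0.014 to 0.066), Slc3a2 (-0.092 to 0.00046) and Slc7a6 (-0.19 to 0.036). Others were seen in the KO interaction for Slc1a5 (-0.12 to 0.036), Slc38a1 (-0.071 to 0.031), Slc7a5 (-0.11 to 0.077) and Slc7a6 (-0.16 to 0.014) and in the KI interaction for Slc7a6 (-0.12 to 0.10). A sign change was found in day 7 against naive in KO for Slc38a1 (-0.040 to 0.063) and in day 7 against naive in KI for Slc1a5 (-0.024 to 0.079) and Slc7a6 (-0.21 to 0.016). No WT naive library had more than 9351180 counts, the lowest such limit of the 6 groups; the effect of depth on its comparisons was not tested.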
